A study of Caenorhabditis elegans with 10 samples.

Results

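Noncoding RNA genes are genes whose product works as an RNA and is not translated. The genes described here were taken from the deposited tables of *Caenorhabditis elegans* by their biotype, as every gene that was labelled neither protein-coding nor a pseudogene, apart from those starting in the third or the fourth megabase of chromosome V. This gave 2523 of the 22554 genes in both tables together. Of these, 2410 carried a noncoding biotype and are called annotated noncoding genes, and 113 were loci assembled from the reads with no biotype. The 8 h table held 876 annotated noncoding genes of 19177 genes and the 24 h table held 2160 of 21915. Only 626 annotated genes stood in both tables, while 250 were listed at 8 h alone and 1534 at 24 h alone. Every listed member had at least 2 reads over the columns of its table.

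RNA was taken from whole worms of strain GMC101, which carries human Aβ1-42 under the body wall muscle promoter unc-54p together with an mtl-2p:GFP marker, and of control strain CL2122, which carries the empty unc-54 vector and the same intestinal marker. Synchronized worms of both strains were grown at 20°C and then kept at 25°C, the temperature used to induce Aβ, for 8 or 24 h. They were young adults at the shift by the paper's methods, whereas the labels give the L1 stage. The labels list 2 samples of each strain at 8 h and 3 of each at 24 h, but the deposited tables hold 1 value per gene, strain and time. The comparison asks which noncoding genes differ between the Aβ strain and its control early and late in the induction, with no replicate check on any difference. A second batch is named for the 8 h data alone in the supplementary material, which leaves batch and time confounded, and they cannot be told apart. Each comparison of the strains was made within 1 time.

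The classes differ in how they are made and in what they do. Ribosomal RNAs form the ribosome, transfer RNAs carry amino acids, small nucleolar RNAs (snoRNAs) guide the modification of ribosomal RNA, and small nuclear RNAs (snRNAs) build the spliceosome or, in nematodes, supply the spliced leader. MicroRNAs (miRNAs) and piRNAs are short regulatory RNAs bound by Argonaute proteins, the miRNAs in many tissues and the piRNAs in the germ line, where they silence foreign sequences. Long intergenic RNAs (lincRNAs) and antisense RNAs resemble messenger RNAs in structure, and a large rest class is labelled ncRNA in the annotation.

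The libraries were made from fragmented mRNA and fragments of 250 to 300 bp were selected, whereas 2041 of the 2410 annotated genes (84.7%) were shorter than 250 bp. Mature small RNAs were therefore not what these libraries measured, and reads on such a gene may come from longer RNA that covers it. The kit as named does not mark strand. Reads on the 134 genes that lie on an exon of a protein-coding gene and on the 956 genes within an intron cannot be told apart from reads of that gene, while 1320 genes lay outside every protein-coding gene of the tables. Of these 1320 genes, 70 overlapped an exon of a protein-coding gene in the Ensembl annotation.

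The depth was 20533034 reads on genes in GMC101 and 22520669 in CL2122 at 8 h, and 25283084 in GMC101 against 24583097 in CL2122 at 24 h. Over all genes, 679 had no read in GMC101 and 596 had none in CL2122 at 8 h. At 24 h these numbers were 1388 in GMC101 and 533 in CL2122. Of the markers looked for in these whole worms, none was past 2-fold at 8 h. At 24 h, 5 of 6 body wall muscle genes were higher in GMC101 (summed levels of 3547 CPM in GMC101 and 1748 in CL2122, where CPM are reads scaled to the same total on genes in every column), as were 5 of 6 sperm genes (34.3 in GMC101 and 6.35 in CL2122) and 1 of 5 intestinal genes (35006 in GMC101 against 20257 in CL2122), but none of 6 oocyte and eggshell genes (5718 in GMC101 against 3905 in CL2122) or of 5 neuronal genes (282 in GMC101 against 333 in CL2122). No marker was at 0 in any column. In whole worms, fewer cells of a type and less RNA per cell cannot be told apart, and the part of these differences in the values below was not tested.

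At 8 h the annotated noncoding genes took the same share of reads in both strains. They held 22027 reads in GMC101 against 24185 in CL2122, or 0.107% of the reads on genes in each strain. At 24 h the share was smaller in GMC101. There, 63733 reads or 0.252% fell on annotated noncoding genes in GMC101, and 79504 reads or 0.323% (95% binomial interval 0.321 to 0.326%, Clopper-Pearson) in CL2122. This interval, like all others below, covers counting error only and not the variation between worm populations. The number of annotated genes seen with at least 1 read was 675 in GMC101 and 712 in CL2122 at 8 h. At 24 h it was 1452 in GMC101 and 1930 in CL2122.

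**Figure D1:**
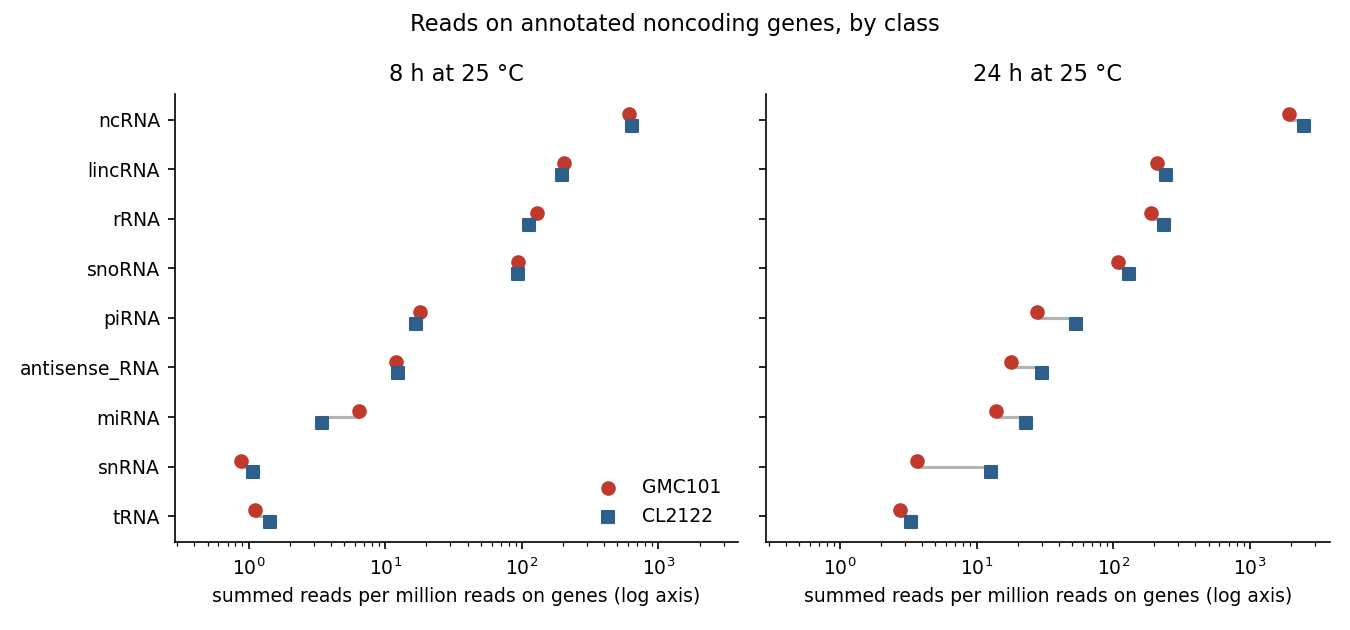
Summed level in CPM (log axis) of the 9 noncoding classes at 8 h (left) and 24 h (right), with GMC101 as circles and CL2122 as squares. At 8 h the miRNA class stands at 6.43 in GMC101 and 3.42 in CL2122, and at 24 h the snRNA class stands at 3.64 in GMC101 and 12.7 in CL2122.

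A few genes carried a large share of these reads. At 8 h the 5 genes with most reads held 38.0% of the noncoding reads in GMC101 and 37.6% in CL2122, and at 24 h they held 60.0% in GMC101 and 58.5% in CL2122. The genes with most reads in this and the next paragraphs that are outside the naming rule given in the methods (W05H9.3, T05E11.9, Y53F4B.45 and C30E1.9) were chosen after their values were seen.

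The gene with most noncoding reads at 24 h was tts-1 (WBGene00006650, chromosome X, 1504131 to 1504841, minus strand, outside protein-coding genes), a long noncoding RNA known from long-lived mutants, in which it associates with ribosomes. It had 159 reads in GMC101 against 228 in CL2122 at 8 h, and 14934 reads in GMC101 against 19162 in CL2122 at 24 h. Its level at 24 h was 591 CPM in GMC101 and 779 CPM in CL2122, which was 76.3 times the 8 h level in GMC101 and 77.0 times in CL2122. The level of tts-1 was thus low at 8 h and high at 24 h in both strains, and the times differ in table and batch. The log2 ratio of normalized counts, GMC101 over CL2122, was −0.42 at 8 h (95% counting interval −0.72 to −0.12) and −0.21 at 24 h (−0.24 to −0.18).

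W05H9.3 (chromosome X, 6252274 to 6253785) was the gene past 2-fold as higher with the most reads. It had 2067 reads in GMC101 against 2278 in CL2122 at 8 h, and 11063 reads in GMC101 against 6011 in CL2122 at 24 h. The log2 ratio of W05H9.3 was −0.04 at 8 h (−0.13 to 0.05) and 1.03 at 24 h (0.99 to 1.08), so that its interval reaches below 2-fold.

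T05E11.9 (chromosome IV, 11106418 to 11107579) and Y53F4B.45 (chromosome II, 15042805 to 15044011, in an intron of trip-4 on the opposite strand) were lower in GMC101 at both times, short of 2-fold. T05E11.9 had 1541 reads in GMC101 against 2069 in CL2122 at 8 h, and 4890 in GMC101 against 9215 in CL2122 at 24 h, with log2 ratios of −0.33 (−0.42 to −0.23) and −0.76 (−0.81 to −0.71). Y53F4B.45 had 307 reads in GMC101 against 536 in CL2122 at 8 h, and 3721 in GMC101 against 6956 in CL2122 at 24 h. Its log2 ratio was −0.70 (−0.91 to −0.50) at 8 h and −0.75 (−0.81 to −0.69) at 24 h, while trip-4 itself had −0.13 at 8 h and −0.17 at 24 h. C30E1.9 (length 14770 bp) had 2704 reads in GMC101 against 3156 in CL2122 at 24 h, a log2 ratio of −0.07 (−0.15 to 0.00).

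lep-5 (WBGene00010424, chromosome X, 12652591 to 12653520), a lincRNA of the heterochronic pathway that times the larva-to-adult transition, had the most noncoding reads at 8 h. It had 2540 reads in GMC101 against 2368 in CL2122 at 8 h, and 2039 in GMC101 against 1780 in CL2122 at 24 h. The log2 ratio of lep-5 was 0.20 (0.12 to 0.28) at 8 h and 0.35 (0.25 to 0.44) at 24 h, and its CPM at 24 h was 0.65 of the 8 h level in GMC101 and 0.69 in CL2122. rncs-1, a noncoding RNA that binds and inhibits Dicer, had 34 reads in GMC101 against 51 in CL2122 at 8 h, and 130 in GMC101 against 210 in CL2122 at 24 h. Its log2 ratio was −0.49 (−1.16 to 0.17) at 8 h and −0.54 (−0.87 to −0.22) at 24 h. None of these 3 long RNAs with a described role was past 2-fold at either time.

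**Figure D2:**
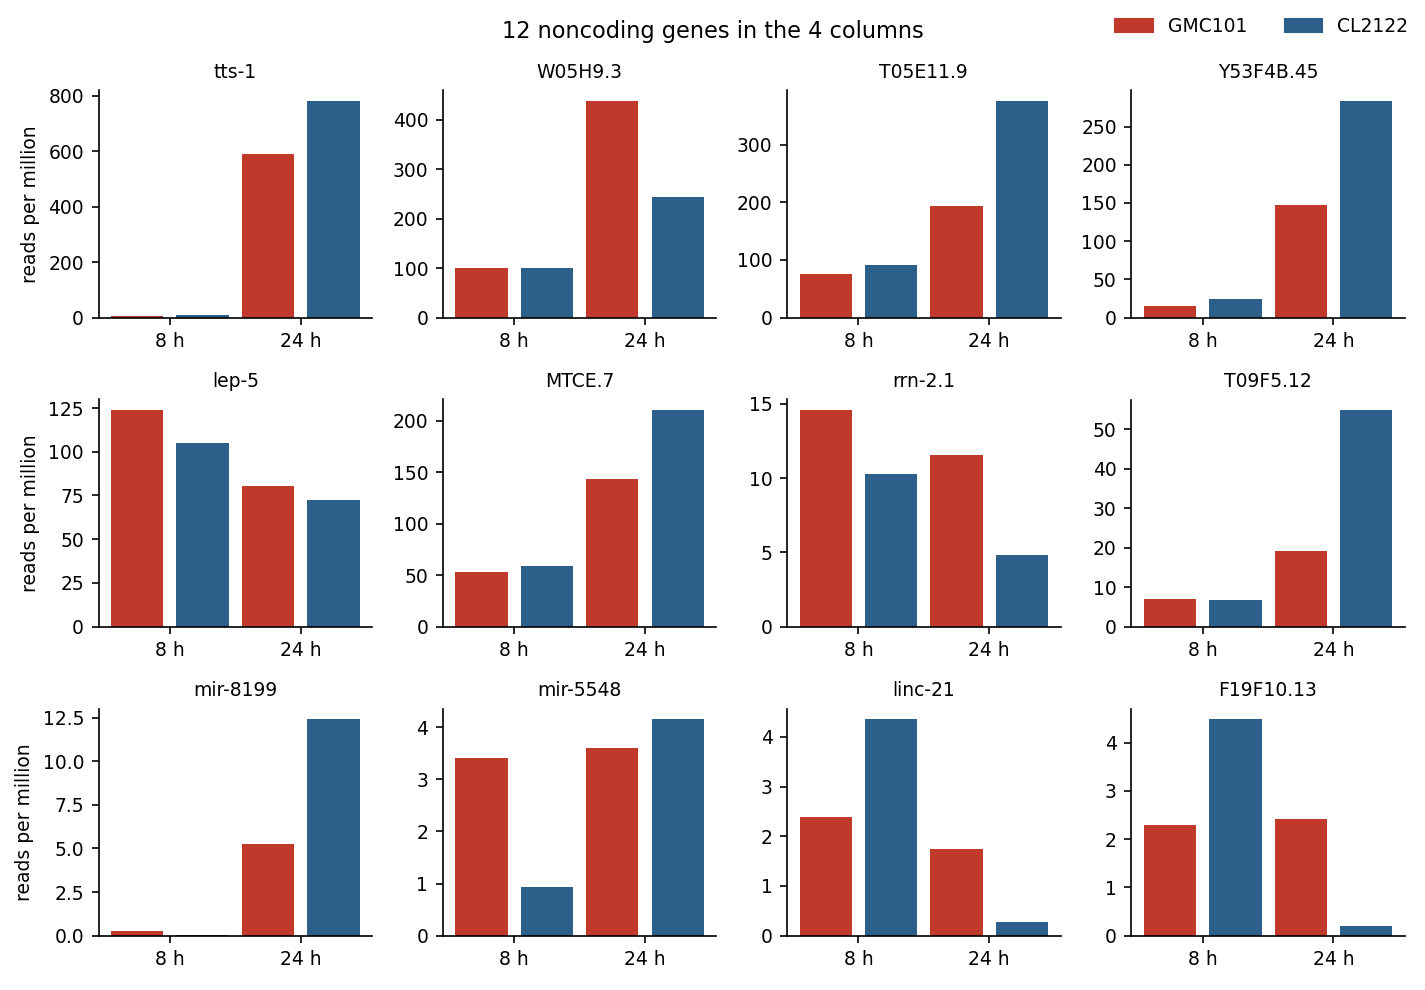
Level in CPM of 12 noncoding genes at 8 h and 24 h, GMC101 (red) left of CL2122 (blue), each panel with its own axis from 0. tts-1 reaches 591 in GMC101 against 779 in CL2122 at 24 h, whereas F19F10.13 and linc-21 are lower in GMC101 at 8 h and higher in GMC101 at 24 h.

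To count differences, a gene was called past 2-fold when its log2 ratio was beyond 1 in either direction with a counting interval that excluded 0 and when the strain with more reads had 10 or more normalized counts. At 8 h, 152 of the 876 annotated noncoding genes reached that minimum. Of these, 9 were past 2-fold as higher (5.92%, beside 2.38% of all genes tested) and 11 as lower (7.24%, beside 4.23%). The median log2 ratio of the noncoding genes tested was −0.09, against 0.00 for all genes tested. Among 14584 protein-coding genes tested, 2.18% were past 2-fold as higher and 4.03% as lower. Among genes with a mean of 5 to 20 normalized counts, 6 of 66 noncoding genes (9.09%) were past 2-fold in each direction, against 9.66% (higher) and 10.5% (lower) of protein-coding genes.

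At 24 h, 293 of the 2160 annotated noncoding genes reached the minimum. Of these, 23 were past 2-fold as higher (7.85%, beside 9.42% of all genes tested) and 96 as lower (32.8%, beside 12.5%). Of protein-coding genes tested, 9.46% were past 2-fold as higher and 11.4% as lower. Of the noncoding calls 19.3% were thus higher, but 9.85% with total-count scaling, which left 13 genes as higher. The median log2 ratio was −0.54, against 0.00 for all genes tested, with 90 genes above 0 and 203 below. These counts describe the genes that passed and not all members, because 95 genes passed through CL2122 alone and 24 through GMC101 alone. Of the 96 genes past 2-fold as lower, 69 had passed in CL2122 alone. Among the 174 noncoding genes with at least 10 normalized counts in both strains, 13 (7.47%) were higher and 27 (15.5%) lower with a median of −0.16, while of 14277 such protein-coding genes 7.12% were higher and 9.69% lower.

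Sums over every listed gene do not depend on that minimum. At 24 h the log2 ratio of the summed normalized counts was −0.17 (−0.18 to −0.15) over the 2160 annotated noncoding genes, against 0.19 over protein-coding genes. Without tts-1 and W05H9.3, which carried the most reads, it was −0.38 (−0.39 to −0.36) over the other 2158 genes. The 1867 genes under the minimum held 2714 reads in GMC101 against 5121 in CL2122, a log2 ratio of −0.77 (−0.83 to −0.70), and 702 of them had no read in GMC101, against 230 in CL2122. The 2757 protein-coding genes under the same minimum held 8297 reads in GMC101 against 10564 in CL2122, with a log2 ratio of −0.20 (−0.24 to −0.16). At 8 h the genes under the minimum stood closer together, with 1326 reads in GMC101 against 1576 in CL2122 on 724 noncoding genes. Scaling to the total count in place of the deposited scaling moved the median of all genes by −0.19 at 24 h and would lower each 24 h ratio by that amount.

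**Figure D3:**
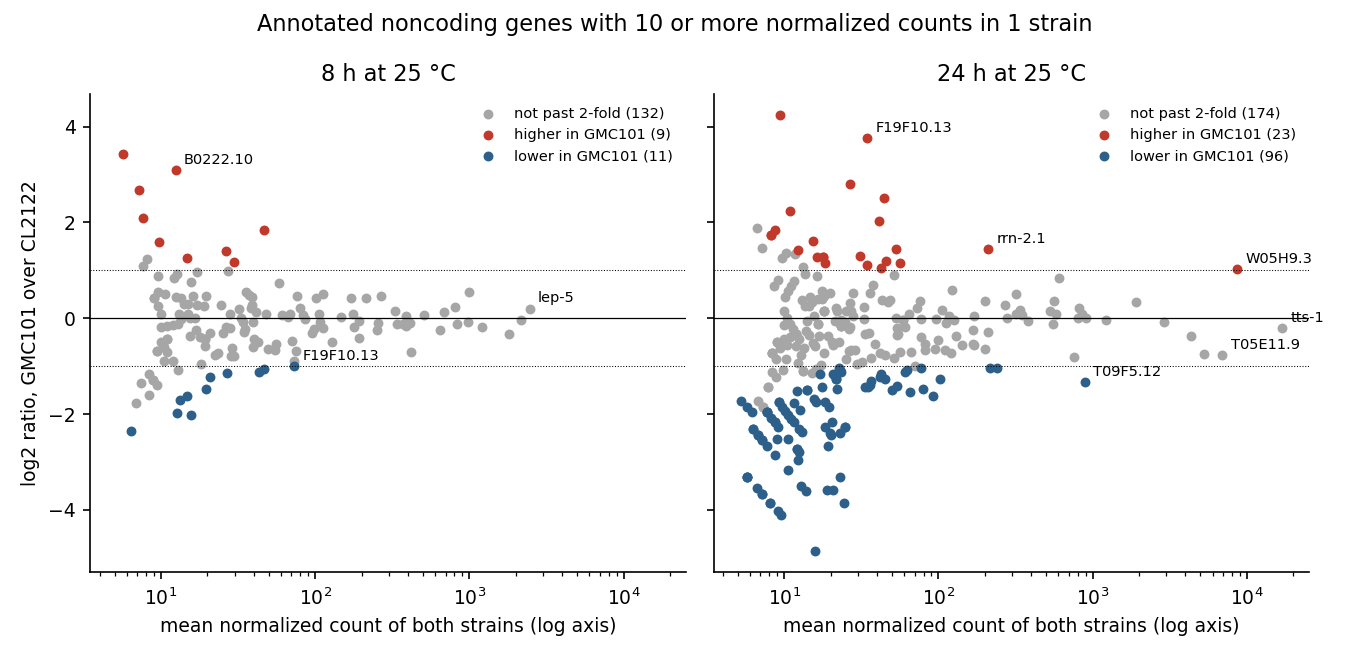
Log2 ratio of normalized counts, GMC101 over CL2122, against the mean normalized count of both strains (log axis) for the annotated noncoding genes with at least 10 normalized counts in 1 strain, 152 at 8 h (left) and 293 at 24 h (right). Red points are past 2-fold as higher (9 and 23), blue points as lower (11 and 96), and dotted lines mark 2-fold.

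The share past 2-fold by level at 24 h depended on which genes passed the minimum. With a mean of 5 to 20 normalized counts, 62 of 148 noncoding genes tested were lower (41.9%), against 19.5% of protein-coding genes. With 20 to 50 it was 22 of 67 (32.8%) against 18.6%, with 50 to 100 it was 8 of 32 (25%) against 16.5%, and with 100 or more it was 4 of 46 (8.70%) against 7.72%. Genes with a low mean pass the minimum mostly where 1 strain is high, which sets many of these calls. Among noncoding genes with 10 normalized counts in both strains, 1 of 39 was lower with a mean of 5 to 20 (2.56%, against 3.58% of protein-coding genes), a range in which 2-fold can hardly be reached, and 14 of 57 with 20 to 50 (24.6%, against 17.0%). From 50 on, the noncoding genes tested had passed in both strains. Pseudogenes, which the rule leaves out, were also often lower, with 161 of 606 tested (26.6%) and a median of −0.30. The share of noncoding genes past 2-fold as higher ran from 4.35% to 11.9% over these levels and was under that of protein-coding genes at each.

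**Figure D4:**
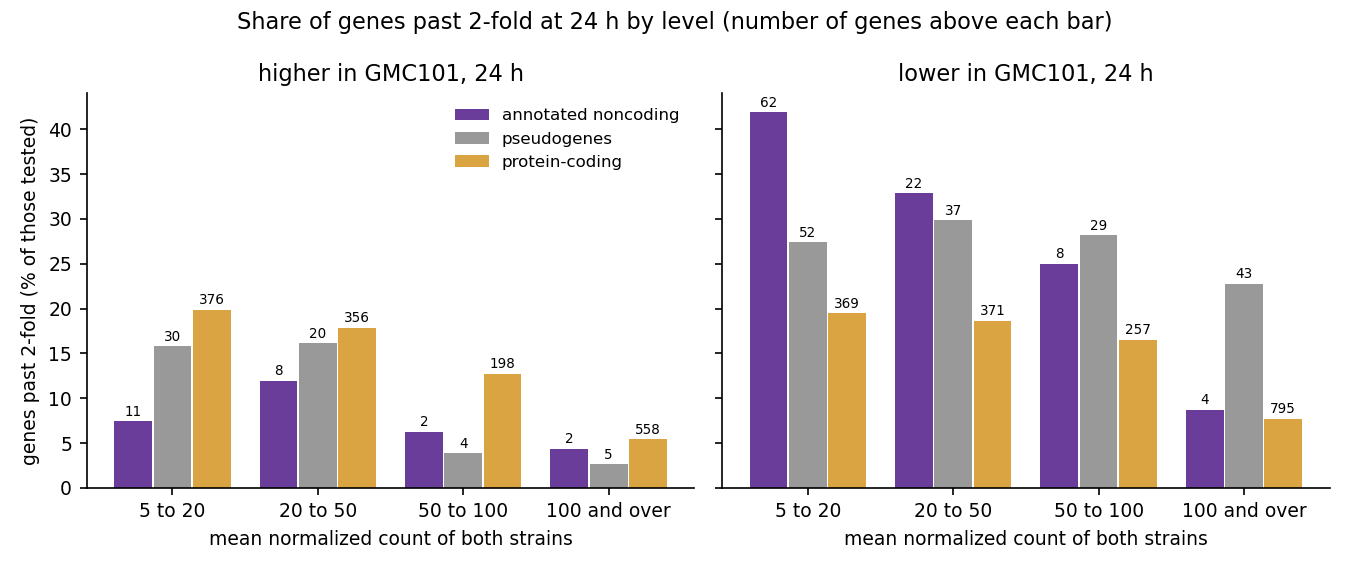
Percent of the genes tested that were past 2-fold at 24 h as higher (left) or lower (right) in GMC101, by mean normalized count, for annotated noncoding genes, pseudogenes and protein-coding genes, with the number of genes above each bar. In the lowest class 41.9% of noncoding and 19.5% of protein-coding genes are lower, most of those noncoding genes with under 10 normalized counts in GMC101, and in the highest 8.70% and 7.72%.

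Length and place were features the rule did not use. At 24 h the 1817 annotated genes shorter than 250 bp held 9439 reads in GMC101 against 13842 in CL2122, a log2 ratio of −0.40 (−0.44 to −0.36), and the 343 longer genes held 54294 in GMC101 against 65662 in CL2122, a ratio of −0.12 (−0.14 to −0.11). That difference rests on tts-1 and W05H9.3, since the other 341 longer genes held 28297 reads in GMC101 against 40489 in CL2122, a ratio of −0.37 (−0.39 to −0.34). At 8 h the ratios were −0.02 (−0.08 to 0.03) for the shorter and −0.04 (−0.07 to −0.01) for the longer genes. Genes within introns of protein-coding genes held 5986 reads in GMC101 against 10712 in CL2122 at 24 h, a log2 ratio of −0.69 (−0.73 to −0.64), with 25 of 54 tested past 2-fold as lower (beside 12.5% of all genes tested). Y53F4B.45 alone held 3721 of these intronic reads in GMC101 and 6956 in CL2122. The ratio was −0.14 (−0.23 to −0.06) for genes on exons, with 5 of 27 lower. For the 1169 genes outside protein-coding genes by both annotations it was −0.11 (−0.12 to −0.09), with 63 of 184 tested past 2-fold as lower. These 1169 genes held 51995 reads in GMC101 against 62145 in CL2122. Of these reads tts-1 held 14934 in GMC101 and 19162 in CL2122, and W05H9.3 held 11063 and 6011. The intronic and outside sums thus rest largely on single genes, and their difference cannot be read as one of place. Of the genes with 10 normalized counts in both strains, 7 of 28 in introns, 3 of 18 on exons and 17 of 105 outside by both annotations were lower, beside 10.3% of all such genes.

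Intronic members were also set beside their host genes. In 53 pairs of an intronic noncoding gene and its host gene at 24 h, the median log2 ratio was −0.75 for the noncoding genes and −0.02 for the hosts. Many of these members had passed the minimum in CL2122 alone, and in the 28 pairs whose member passed in both strains the medians were −0.44 for the noncoding genes and 0.09 for the hosts. Of the 24 members that were lower, 2 had a host that was also past 2-fold as lower, namely F08G2.11 in F08G2.8 and T24B8.22 in T24B8.3. Across these pairs Spearman's correlation of the ratios was 0.22, given as a description since both genes of a pair share libraries and can share reads. In the 27 exonic pairs it was −0.07, and linc-72 was higher (74 reads in GMC101 against 30 in CL2122) where its host F46C5.1 on the opposite strand was lower, with log2 ratios of 1.45 and −1.10.

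**Figure D5:**
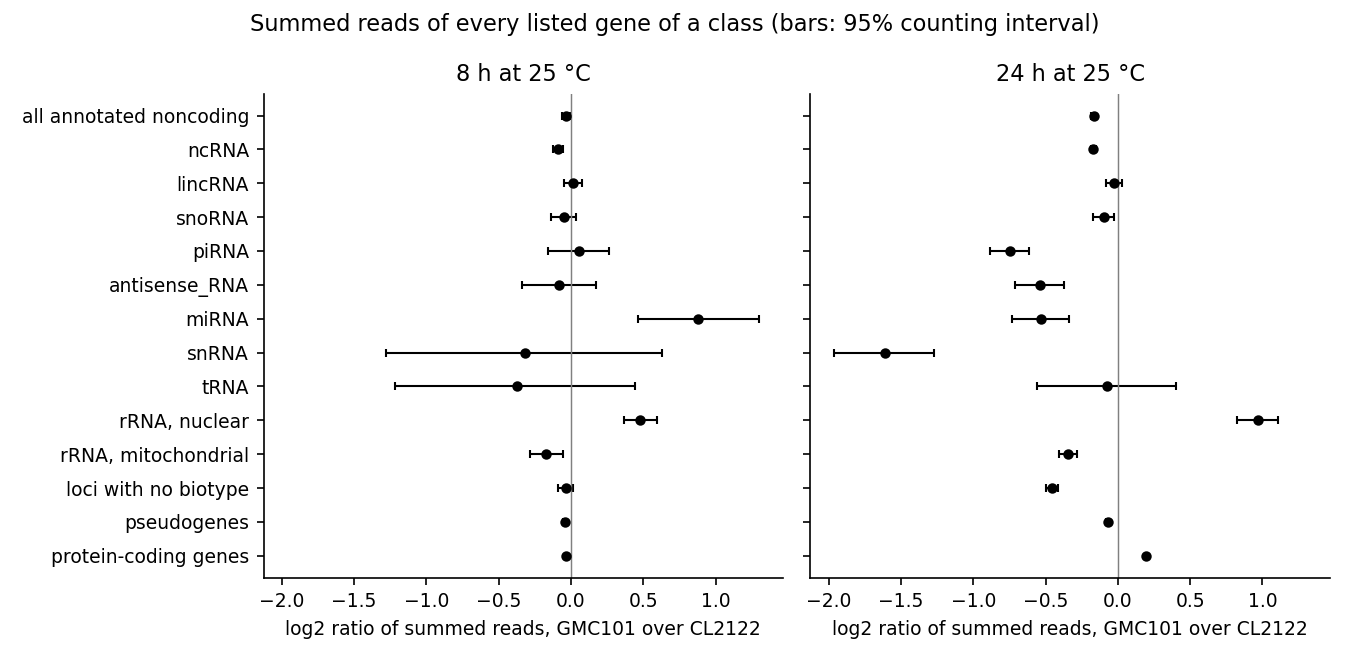
Log2 ratio of summed normalized counts, GMC101 over CL2122, for every listed gene of each class at 8 h (left) and 24 h (right), with bars for the 95% counting interval. At 24 h the snRNA class lies lowest at −1.61 and nuclear rRNA highest at 0.97, with protein-coding genes at 0.19.

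By class, the snRNA genes differed most at 24 h. The 30 listed snRNA genes held 92 reads in GMC101 against 312 in CL2122, a log2 ratio of −1.61 (−1.96 to −1.27), and 15 of them had no read in GMC101 against 0 of 30 in CL2122. Of 9 tested, 7 were past 2-fold as lower (beside 12.5% of all genes tested), and each of the 7 had passed in CL2122 alone. At 8 h only 6 snRNA genes were listed, with 18 reads in GMC101 against 24 in CL2122. Most of the reads that CL2122 had in excess at 24 h lay on genes outside protein-coding genes, with 23 reads in GMC101 against 203 in CL2122 on 18 genes, while 12 intronic snRNA genes had 69 in GMC101 against 109 in CL2122.

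F56H6.16 (WBGene00014405, chromosome I, 12285746 to 12285932) had 0 reads in GMC101 against 40 in CL2122 at 24 h. With the column at 0 set to 3 reads, F56H6.16 was 12-fold lower in GMC101, a log2 ratio of −3.59. The counting interval of F56H6.16 ended at −3.22, so 12-fold is not a lower bound. Its neighbour F56H6.14 had 2 reads in GMC101 against 14 in CL2122, W04G5.11 had 0 in GMC101 against 19 in CL2122, and F40G12.14 had 3 in GMC101 against 40 in CL2122. sls-1.12, a gene for the spliced leader that is joined to the start of most nematode messenger RNAs, had 7 reads in GMC101 against 25 in CL2122, a log2 ratio of −1.69 (−3.14 to −0.44). F32B5.9, an intronic snRNA gene, had 34 reads in GMC101 against 32 in CL2122 at 24 h and was not past 2-fold. Many snRNA, spliced leader and transfer RNA genes are near-identical copies, and how reads that fit several copies were counted is not given in the sources used here.

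The summed reads of the nuclear and of the mitochondrial ribosomal RNAs lay on different sides of 0. The nuclear rRNA genes held 1490 reads in GMC101 against 1145 in CL2122 at 8 h, and 1111 in GMC101 against 631 in CL2122 at 24 h, with log2 ratios of 0.48 (0.37 to 0.59) and 0.97 (0.82 to 1.11). rrn-2.1, which encodes the short rRNA of the large subunit, had a level of 14.6 CPM in GMC101 against 10.3 CPM in CL2122 at 8 h, and of 11.5 CPM in GMC101 against 4.84 CPM in CL2122 at 24 h. The log2 ratio of rrn-2.1 was 0.47 (0.21 to 0.72) at 8 h and 1.45 (1.13 to 1.77) at 24 h. rrn-1.1, for the small subunit, had 54 reads in GMC101 against 29 in CL2122 at 24 h and was also past 2-fold as higher. rrn-3.1, for the large subunit, had 733 reads in GMC101 against 453 in CL2122, a ratio of 0.84 (0.67 to 1.02) that was not past 2-fold. The genes of the rRNA repeat are near-identical copies, and the libraries were made from mRNA, so these are reads left after that selection.

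The mitochondrial small-subunit rRNA gene MTCE.7 had 1097 reads in GMC101 against 1332 in CL2122 at 8 h, and 3622 in GMC101 against 5163 in CL2122 at 24 h. Its log2 ratio was −0.18 (−0.30 to −0.06) at 8 h and −0.36 (−0.42 to −0.30) at 24 h. The large-subunit gene MTCE.33 had far fewer reads, 60 in GMC101 against 29 in CL2122 at 24 h, with a log2 ratio of 1.20 (0.54 to 1.89), and was past 2-fold as higher. For rRNA as 1 class, the sum (−0.13) and the median of the 6 genes tested (0.95) thus differ in sign at 24 h.

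The snoRNA genes with most reads did not differ between the strains by 2-fold. ZK858.10 had 836 reads in GMC101 against 794 in CL2122 at 24 h, a log2 ratio of 0.22 (0.08 to 0.37), and K10D3.10, which lies on an exon of K10D3.4, had 1143 in GMC101 against 1292 in CL2122, a ratio of −0.03 (−0.14 to 0.09). Of 32 snoRNA genes tested at 24 h, 10 were past 2-fold as lower (beside 12.5% of all genes tested) and 0 as higher (beside 9.42%), all of them with fewer reads. Of the 16 that passed in both strains, 2 were lower (beside 10.3% of all such genes). C17H12.36 had 1 read in GMC101 against 32 in CL2122, a log2 ratio of −4.85 (−10.2 to −2.27), and Y67A10A.14 had 17 reads in GMC101 against 51 in CL2122. Over the 123 listed snoRNA genes the summed ratio was −0.10 (−0.17 to −0.02). At 8 h it was −0.05 (−0.14 to 0.04) over 81 genes, with 1 of 16 tested past 2-fold as higher and 1 as lower.

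The piRNA genes, each annotated as 21 bp, held 367 reads in GMC101 against 379 in CL2122 on 164 genes at 8 h, and 705 in GMC101 against 1314 in CL2122 on 489 genes at 24 h. The log2 ratios were 0.05 (−0.16 to 0.26) and −0.75 (−0.88 to −0.61). Most lay on chromosome IV, 143 of 164 at 8 h and 430 of 489 at 24 h, where the annotated piRNA clusters are. Of 11 tested at 24 h, 7 were past 2-fold as lower (beside 12.5% of all genes tested), and each of them passed in CL2122 alone. Of the 4 that passed in both strains, 0 were lower (beside 10.3% of all such genes). 21ur-15323, on chromosome V, had 6 reads in GMC101 against 35 in CL2122 at 24 h, while 21ur-10296, on an exon of eps-8, had 28 in GMC101 against 25 in CL2122. Both piRNA genes outside protein-coding genes and intronic ones had fewer reads in GMC101, with 354 in GMC101 against 714 in CL2122 outside and 302 in GMC101 against 550 in CL2122 in introns.

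Among proteins of these pathways, none was past 2-fold at either time. All 11 listed genes of the miRNA pathway were tested, with median log2 ratios of 0.04 at 8 h and −0.02 at 24 h. For 14 genes of piRNA transcription and function, among them the Argonaute gene prg-1, the medians were −0.03 and 0.30. For 17 genes of snoRNPs and snRNPs they were −0.04 and 0.22, and for 4 genes of noncoding RNA binding and editing −0.01 and −0.03. All genes tested had medians of 0.00 at 8 h and 0.00 at 24 h.

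MicroRNA genes were hardly covered. The 49 listed at 24 h held 353 reads in GMC101 against 567 in CL2122, a log2 ratio of −0.53 (−0.73 to −0.34), and the 21 listed at 8 h held 132 in GMC101 against 77 in CL2122, a ratio of 0.88 (0.46 to 1.30). Both values rest on few genes. mir-5548 had 70 reads in GMC101 against 21 in CL2122 at 8 h, a log2 ratio of 1.84 (1.12 to 2.61), and 91 in GMC101 against 102 in CL2122 at 24 h, a ratio of −0.01 (−0.44 to 0.41). mir-8199 had 5 reads in GMC101 against 1 in CL2122 at 8 h, and 133 in GMC101 against 305 in CL2122 at 24 h, where its ratio was −1.05 (−1.35 to −0.75). mir-238 had 42 reads in GMC101 against 19 in CL2122 at 24 h, a log2 ratio of 1.29 (0.48 to 2.16). Of the well known heterochronic, germ-line, muscle and neuronal miRNAs looked for, none reached 10 normalized counts in any column. The 7 listed muscle, neuronal and stress miRNA genes, for example, held 15 reads in GMC101 against 18 in CL2122 at 24 h.

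The linc series holds lincRNAs numbered in the annotation and had members on both sides. At 8 h, 1 of 37 tested was past 2-fold as higher (beside 2.38% of all genes tested) and 5 as lower (beside 4.23%). At 24 h, 8 of 62 were higher (beside 9.42%) and 14 lower (beside 12.5%). Of the 42 that passed in both strains, 3 were higher (beside 7.06% of all such genes) and 8 lower (beside 10.3%). linc-21 (chromosome IV, 4242086 to 4242466) had 49 reads in GMC101 against 98 in CL2122 at 8 h, and 44 in GMC101 against 7 in CL2122 at 24 h. The log2 ratio of linc-21 was −0.90 (−1.43 to −0.39) at 8 h and 2.80 (1.64 to 4.2) at 24 h. linc-72 and linc-7 were also past 2-fold as higher at 24 h, linc-7 with 74 reads in GMC101 against 37 in CL2122. On the other side, linc-108 had 40 reads in GMC101 against 123 in CL2122, and linc-94 had 25 in GMC101 against 78 in CL2122 at 24 h. For linc-91 the reads were 19 in GMC101 against 55 in CL2122, and for linc-11 they were 148 in GMC101 against 338 in CL2122. Members of the series with more reads, linc-22 and linc-8, were not past 2-fold. linc-22 had 838 reads in GMC101 against 877 in CL2122 at 24 h, a ratio of 0.08 (−0.05 to 0.22), and linc-8 had 339 in GMC101 against 334 in CL2122, a ratio of 0.17 (−0.05 to 0.39).

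Most antisense RNA genes of the anr series lie across protein-coding genes, so that those reads cannot be told apart from those of the other strand. At 24 h, 1 of 14 tested was past 2-fold as higher (beside 9.42% of all genes tested) and 5 as lower (beside 12.5%). Of the 8 that passed in both strains, 1 was higher (beside 7.06% of all such genes) and 1 lower (beside 10.3%). anr-54, in an intron of vhp-1, had 3 reads in GMC101 against 48 in CL2122 and a log2 ratio of −3.85 (−6.18 to −2.22), while vhp-1 had −0.47. anr-8, in an intron of tpra-1, had 83 reads in GMC101 against 77 in CL2122 at 8 h, and 82 in GMC101 against 143 in CL2122 at 24 h. Its log2 ratio was 0.21 (−0.26 to 0.67) at 8 h and −0.65 (−1.06 to −0.25) at 24 h.

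Within the class labelled ncRNA, 10 of 143 genes tested at 24 h were past 2-fold as higher (beside 9.42% of all genes tested) and 48 as lower (beside 12.5%). Of the 87 that passed in both strains, 5 were higher (beside 7.06% of all such genes) and 14 lower (beside 10.3%). F19F10.13 (WBGene00219905, chromosome V, 7567999 to 7568131, in an intron of clec-212 on the opposite strand) had a level of 2.29 CPM in GMC101 against 4.48 CPM in CL2122 at 8 h, and of 2.41 CPM (61 reads) in GMC101 against 0.203 CPM (5 reads) in CL2122 at 24 h. The log2 ratio of F19F10.13 was −1.004 (−1.54 to −0.49) at 8 h and 3.76 (2.46 to 5.43) at 24 h. F19B10.14 had 72 reads in GMC101 against 14 in CL2122 at 24 h, a log2 ratio of 2.51 (1.67 to 3.45), and W07G1.25 had 63 in GMC101 against 17 in CL2122, a ratio of 2.04 (1.25 to 2.91). All 3 lie where no exon of a protein-coding gene is annotated.

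T09F5.12 (WBGene00014836, chromosome V, 15164743 to 15166318, outside protein-coding genes) had the most reads among the noncoding genes past 2-fold as lower. It had 143 reads in GMC101 against 151 in CL2122 at 8 h, a ratio of 0.02 (−0.32 to 0.36), and 484 in GMC101 against 1347 in CL2122 at 24 h, a ratio of −1.33 (−1.48 to −1.18). Its CPM at 24 h was 2.75 times the 8 h level in GMC101 and 8.17 times in CL2122. R07C3.17 had 43 reads in GMC101 against 146 in CL2122 at 24 h, a log2 ratio of −1.61 (−2.14 to −1.11), and R11E3.18 had 32 in GMC101 against 103 in CL2122, a ratio of −1.54 (−2.16 to −0.95). rpr-1, the RNA of RNase P that trims transfer RNA precursors, had 38 reads in GMC101 against 89 in CL2122 at 24 h, a ratio of −1.08 (−1.67 to −0.51), while its host Y48G10A.4 on the opposite strand had 0.28.

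F40G9.20 (chromosome III, 178876 to 178895) had the most reads per kilobase of all annotated noncoding genes at 24 h and is annotated as 20 bp. It had 9 reads in GMC101 against 6 in CL2122 at 8 h, and 521 in GMC101 against 1009 in CL2122 at 24 h, a log2 ratio of −0.80 (−0.96 to −0.65). F20C5.10 (length 56 bp) had 501 reads in GMC101 against 512 in CL2122 at 8 h, and 602 in GMC101 against 519 in CL2122 at 24 h. It was not past 2-fold, and its CPM at 24 h was 0.98 of the 8 h level in GMC101 and 0.93 in CL2122.

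Few genes differed at both times, among the noncoding genes as among all genes. Of 132 annotated noncoding genes tested at both, 0 were past 2-fold as higher at both times and 1 as lower at both. Over all 14669 genes tested at both times, 89 (0.607%) were higher at both and 204 (1.39%) lower at both. The positions on chromosome V left out for noncoding genes were kept among all genes here too. The 1 noncoding gene was 5% of the 20 called at 8 h and 0.840% of those called at 24 h. These shares of the lists do not compare with the shares of genes tested. That gene was D1022.17 (chromosome II, 7471624 to 7472555), named here after its values were seen, which had 7 reads in GMC101 against 23 in CL2122 at 8 h, and 7 in GMC101 against 26 in CL2122 at 24 h. D1065.6 came close, with 26 reads in GMC101 against 61 in CL2122 at 8 h and 45 in GMC101 against 99 in CL2122 at 24 h. Its log2 ratio was −1.13 (−1.85 to −0.45) at 8 h and −0.99 (−1.53 to −0.46) at 24 h. Another 4 of the 132 genes were past 2-fold in opposite directions at the 2 times, and the share of all genes that did so was not counted.

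Some genes past 2-fold at 24 h lay beside each other. In 6 cases a gene and its next neighbour among those called were at most 2000 bp apart, involving 11 genes, and in 6 of 6 cases both had the same direction. These neighbours were found after the values were seen. Most annotated noncoding genes called at 24 h were lower (96, against 23 higher), so called genes often share a direction without being neighbours. How many of the 6 cases that skew alone would give was not tested. linc-41 and linc-21 lie 320 bp apart on the minus strand of chromosome IV and were both higher at 24 h. T24B8.22, T24B8.10 and T24B8.21 lie together on chromosome II in or next to T24B8.3 and were lower. T24B8.10 had 0 reads in GMC101 against 26 in CL2122. With the column at 0 set to 3 reads, T24B8.10 was 7.81-fold lower in GMC101, a log2 ratio of −2.97. Its counting interval ended at −2.56, so 7.81-fold is not a lower bound. Neighbours can share a transcript or reads that extend past a gene's annotated end, so they do not count as separate observations.

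The 113 loci with no biotype all lay outside every protein-coding gene of the tables, and 20 carry a description of a protein domain. Some of them overlapped an exon of a protein-coding gene in the Ensembl annotation. An example is the locus at 6974564 to 6976013 of chromosome II, with C15F1.8. The loci thus cannot be taken as noncoding. At 8 h they held 5875 reads in GMC101 against 6458 in CL2122 on 88 loci, a log2 ratio of −0.04 (−0.09 to 0.01), with 4 of 60 tested past 2-fold as higher (beside 2.38% of all genes tested) and 5 as lower (beside 4.23%). At 24 h, 109 loci held 7879 reads in GMC101 against 11981 in CL2122, a log2 ratio of −0.45 (−0.50 to −0.41), with 9 of 97 tested past 2-fold as higher (beside 9.42%) and 35 as lower (beside 12.5%). Of the 79 that passed in both strains, 4 were higher (beside 7.06% of all such genes) and 27 lower (beside 10.3%). The locus at 17631214 to 17636711 of chromosome V, named after its values were seen, was higher at both times, with 178 reads in GMC101 against 72 in CL2122 at 8 h and 366 in GMC101 against 109 in CL2122 at 24 h. The locus at 5091917 to 5093343 of chromosome III had 416 reads in GMC101 against 93 in CL2122 at 24 h, a log2 ratio of 2.31 (1.98 to 2.65).

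The counts depend on how strictly a gene is called, as edgeR's exact test with an assumed coefficient of variation between libraries shows. This test covered every listed gene, with 876 annotated noncoding of 19177 genes at 8 h and 2160 of 21915 at 24 h. With 0.2 it called 1 noncoding gene as higher and 0 as lower at 8 h, beside 0.235% and 0.579% of all genes. At 24 h it called 6 as higher and 35 as lower, beside 4.02% and 4.72%. Over all listed genes the noncoding shares were thus under those of all genes at each time, but 724 noncoding genes at 8 h and 1867 at 24 h were under the minimum used above. At 24 h, 293 noncoding genes reached that minimum, out of 16757 of all genes. Shares of this test among the genes that reached the minimum were not counted, and their order can be the other way. With 0.4 it called 0 as higher and 0 as lower at 8 h, beside 0.0365% and 0.0469% of all genes, and 0 as higher and 1 as lower at 24 h, beside 0.196% and 0.0365%.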

How the data were processed

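RNA-seq of whole GMC101 and CL2122 worms (10 samples in the labels) was deposited as 2 tables, for 8 h and 24 h, each with 1 signal column per strain. Per the submitters' processing notes HISAT2 2.05, StringTie 1.33 and DESeq2 were used, and the genome build, the read counter and how the samples were combined are not given in the sources used here. The deposited signal values are read counts that the authors scaled to a library size common to both columns, since division by the smallest step gave whole reads (within 0.1) in 99.97% or more of each column's values. The tables also hold the authors' log2 fold changes, p-values and adjusted p-values, which were not used.

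The recovered reads per gene were compared as the log2 ratio of normalized counts with a 95% interval (exact Clopper-Pearson, from the split of the reads between strains), which covers counting error only. A column at 0 was set to 3 reads. With 1 column per strain and time no replicate check was possible and p-values across genes are not given. The edgeR test planned for replicate counts was replaced by the exact test with assumed coefficients of variation of 0.2 and 0.4 as alternatives. With 0.2 it called 45 genes as higher and 111 as lower at 8 h, and 881 and 1034 at 24 h. The paper gives the same numbers of up- and down-regulated genes, and its methods do not name the test. The ratio and its interval were tested on simulated data. Levels across times are CPM, because the tables were normalized separately, and between genes per kilobase.

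Named genes are, at each time, the 8 with the largest ratio in each direction among those past 2-fold with at least 50 normalized counts, the 3 with most reads per kilobase of each biotype, those past 2-fold alike at both times with at least 50, and listed genes with at least 10 normalized counts. Not every gene so chosen is described, and W05H9.3, T05E11.9, Y53F4B.45, C30E1.9, D1022.17, K02F2.11, C17H12.36, Y67A10A.14, 21ur-15323, T24B8.22 with its neighbours, and the snRNA genes other than sls-1.12 and F32B5.9 were named after their values were seen. Members and lists were chosen with earlier results of these data known. Overlaps used the deposited coordinates, and 2406 of 2410 annotated genes have the same coordinates in Ensembl release 115 (WBcel235), the source of exons. No sequence is shown, as no genome was used here. Tools were Python 3.11.15 with matplotlib 3.10.9, pandas 2.3.3, scipy 1.17.1 and numpy 2.4.6, and R 4.3.3 with DESeq2 1.42.0 for size factors and edgeR 4.0.16.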

Additional observations from a re-analysis of the deposited data

Results flagged for a closer look

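In 4 of the 132 annotated noncoding genes tested at both times the strains differed past 2-fold in opposite directions. How many of all genes did so was not counted, so whether 4 is many cannot be said. The difference between the times was not tested, since each time has 1 column per strain. linc-107 had a log2 ratio of −2.02 at 8 h and 1.12 at 24 h, with 6 reads in GMC101 against 26 in CL2122 at 8 h and 45 in GMC101 against 23 in CL2122 at 24 h. linc-41 had −1.49 at 8 h and 1.61 at 24 h, with 10 reads in GMC101 against 30 in CL2122 at 8 h and 22 in GMC101 against 8 in CL2122 at 24 h. F19F10.13 had −1.004 at 8 h and 3.76 at 24 h, and T24B8.22 had 2.68 at 8 h and −1.04 at 24 h. T24B8.22 lies within an intron of T24B8.3. For T24B8.22 the reads were 12 in GMC101 against 2 in CL2122 at 8 h, and 14 in GMC101 against 32 in CL2122 at 24 h. Time and batch cannot be told apart for these genes.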

How the results depend on the processing

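The counts past 2-fold depended on the minimum and on the error assumed, while no value of a named gene that was past 2-fold changed sign. At 8 h, in place of 9 higher and 11 lower, a minimum of 50 normalized counts gave 1 and 3, a whole interval beyond 2-fold 2 and 0, the exact test 1 and 0 with a coefficient of 0.2 and 0 and 0 with 0.4. No minimum gave 14 higher and genes free of protein-coding genes 4 higher. At 24 h, in place of 23 higher and 96 lower, a minimum of 50 gave 9 and 18, a whole interval beyond 2-fold 6 and 26, and the exact test 6 and 35 with 0.2 and 0 and 1 with 0.4. Total-count scaling gave 13 higher at 24 h and a median of −0.82, a minimum of 50 a median of −0.18, against −0.54. Genes past 2-fold alike at both times numbered 0 with a minimum of 50 and 2 with total-count scaling. A minimum of 10 normalized counts in both strains, chosen after seeing the data, left 112 noncoding genes at 8 h. Of these, 3 were higher (2.68%, beside 1.37% of all such genes) and 6 lower (5.36%, beside 3.17%). At 24 h it left 174 noncoding genes, with 13 higher (7.47%, beside 7.06%), 27 lower (15.5%, beside 10.3%) and a median of −0.16. Shares of all genes under the exact test are given above. They are not given for the remaining settings, so those counts do not show whether noncoding genes were called more often than others. The share of reads at 8 h was 0.0945% in GMC101 and 0.0962% in CL2122 without rRNA, 0.0925% and 0.0909% on genes free of protein-coding genes, and 0.136% and 0.136% with loci of no biotype, also chosen after seeing the data. At 24 h these shares were 0.233% in GMC101 and 0.300% in CL2122, 0.221% and 0.270%, and 0.283% and 0.372%. Median-of-ratios scaling and a pseudocount of 1 kept every count within 1.5 times. Total-count scaling changed the sign of 11 of 205 values of named genes and median-of-ratios scaling of 1, none of them past 2-fold. The cause was not tested, except that stricter minimums leave fewer genes.

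No paired analysis was possible because the columns carry no replicate numbers, and leaving out replicates was not possible for the same reason. Counting limits most noncoding genes, since 724 of 876 at 8 h and 1867 of 2160 at 24 h had fewer than 10 normalized counts in both strains.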

Other observations

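By chromosome, the summed log2 ratio of annotated noncoding genes at 24 h was lowest on chromosome V at −0.67 (−0.75 to −0.60), chromosome IV at −0.61 (−0.65 to −0.57) and chromosome II at −0.59 (−0.63 to −0.55). It was −0.30 (−0.37 to −0.24) on chromosome III, −0.03 (−0.08 to 0.02) on chromosome I, which holds the nuclear rRNA genes, and 0.13 (0.11 to 0.16) on chromosome X, which holds tts-1 and W05H9.3. On chromosome IV, T05E11.9 held 4890 of 8086 noncoding reads in GMC101 and 9215 of 13709 in CL2122. On chromosome II, Y53F4B.45 held 3721 of 6756 in GMC101 and 6956 of 11292 in CL2122. Several of these sums thus rest on single genes, and their order cannot be read as a trait of the chromosomes. Protein-coding genes of the same chromosomes had summed ratios of 0.13 on V, 0.32 on IV, 0.11 on II, 0.19 on III, 0.20 on I and 0.18 on X. At 8 h the noncoding sums lay between −0.20 on chromosome II and 0.12 on chromosome I among the nuclear chromosomes.

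Of the genes past 2-fold as higher at 24 h, K02F2.11, chosen after its values were seen, had the largest ratio but few reads, with 17 in GMC101 against 1 in CL2122 and a log2 ratio of 4.24 (1.56 to 9.62).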
